A study of Mus musculus with 17 samples.

Results

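The renin-angiotensin system was examined through 7 genes, Ren1, Agt, Ace, Agtr1a, Agtr1b, Enpep and Mme, out of 21938 protein-coding genes in the mouse annotation. The genes were listed by name, and the measure was chromatin accessibility in the kidney, taken by ATAC-seq (assay for transposase-accessible chromatin with sequencing) from 10 kb upstream of each gene to its end. ATAC-seq uses an enzyme that cuts DNA where it is not packed away, and a summit is the base at which the signal of an accessible site peaks. The 17 libraries, each of 20000 cells from 1 male mouse aged 8 weeks at the start, fell into 3 groups. The Ctrl group (n = 5) held wild-type C57BL/6 mice given saline. The Case group (n = 6) held diabetic mice of the strain BKS.Cg-Dock7m +/+ Leprdb/J, called db/db, which lack a working leptin receptor and were also given saline. Mice of the same db/db strain that received dapagliflozin, which blocks the renal glucose carrier SGLT2, at a dose of 1 mg/kg/day over 6 weeks made up the Dapa group (n = 6). Strain background, the db/db genotype and diabetes cannot be told apart in any comparison with Ctrl, and the same Ctrl mice served both the Case and the Dapa group.

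The renin-angiotensin system raises blood pressure and holds back salt. Renin, released by juxtaglomerular cells in the wall of the afferent arteriole, cuts angiotensinogen into angiotensin I, and angiotensin-converting enzyme (ACE) trims that to angiotensin II, which acts through AT1 receptors. The proximal tubule of the kidney has its own angiotensinogen, ACE and AT1 receptors, and the peptidases aminopeptidase A and neprilysin on its brush border break angiotensins down. Blockade of the system is a standard treatment of diabetic kidney disease.

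The lists held 37402 to 56659 summits in Ctrl, 29702 to 51292 in Case and 32846 to 49442 in Dapa. Sequencing depth is unknown, so the 29702 highest-scoring summits of every mouse, the length of the shortest list, were used as equal-length lists, and the place of a summit in its list is given as a rank percentile from 0 (lowest score) to 100 (highest). Markers of kidney epithelium had a summit within 1 kb of a start for a median of 75.0% of the 12 genes in Ctrl, 83.3% in Case and 75.0% in Dapa, although Slc12a1 and Aqp2 had none in any mouse. Of 8 markers of vascular smooth muscle, mesangial and juxtaglomerular cells, 7 had none in any mouse, among them Acta2, Myh11 and the renin cell gene Akr1b7, and the eighth, the integrin gene Itga8, had one in 5 Ctrl, 2 Case and 1 Dapa mice. Of 8 leukocyte markers, no Ctrl mouse had a summit at any, while Case mice ranged from 0 to 37.5% and Dapa mice from 0 to 12.5%. In whole tissue, fewer cells of a type and less accessible DNA per cell cannot be told apart.

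In the complete lists the windows of the 7 genes held 216 summits, of which 161 were in the equal-length lists and 55 ranked too low for them. Of these 161 summits, 150 fell into 16 regions that at least 2 mice shared (summits extended by 250 bp and merged), out of 52425 such regions in the genome, and 11 were found in 1 mouse only. The regions are named by their gene and the distance in bp of their median summit from the gene start, so that Agt −136 lies 136 bp upstream of Agt. Their spread over mice was uneven: 2 regions, Agt −136 and Enpep −44, were found in all 17 mice, 4 in 13 to 16 mice and 10 in 3 to 9 mice. Upstream of the gene lay 6 regions, in an intron 8 and in an exon 2. A summit in all 17 mice was found for 2 of the 7 genes (28.6%), beside 41.5% of all protein-coding genes. Per 100 kb of window the mean number of summits ran from 0.188 for Agtr1b through 1.18 for Mme, 2.56 for Enpep, 2.81 for Agtr1a, 4.23 for Ace and 4.75 for Ren1 to 7.62 for Agt, and the median of all genes was 2.01.

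**Figure D1:**
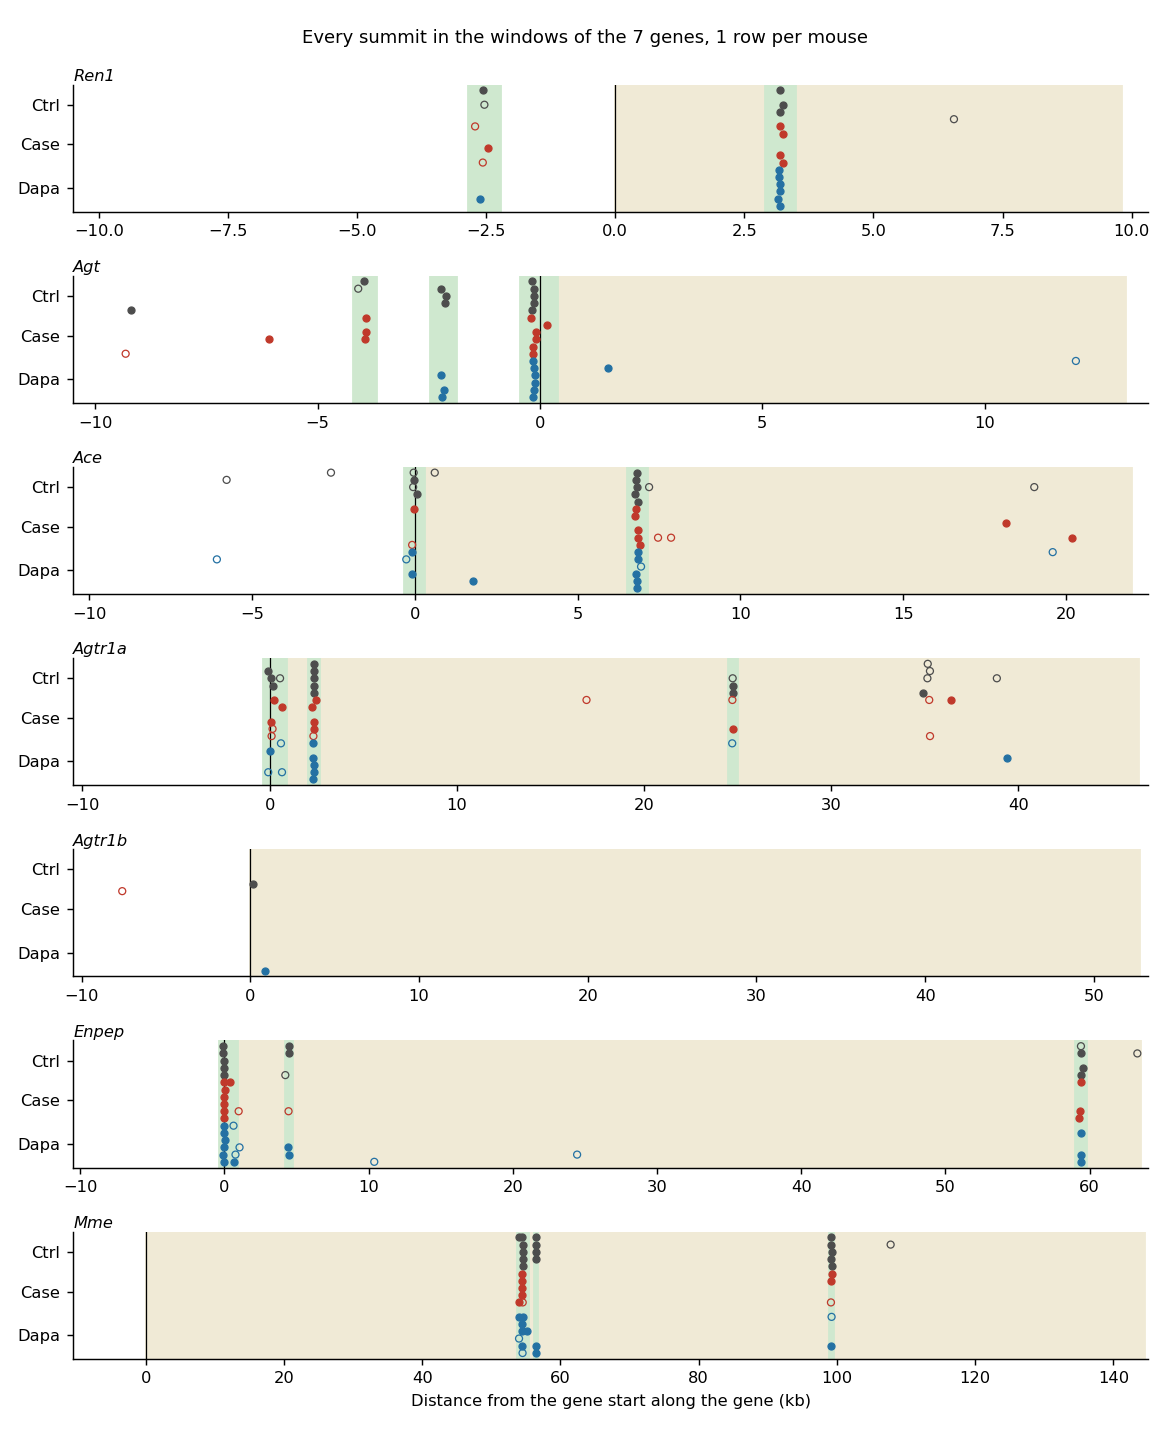
Each panel is 1 gene, the x axis is the distance from the gene start in kb along the direction of the gene (shaded from its start to its end), each row is 1 mouse (Ctrl grey, Case red, Dapa blue) and each circle a summit, filled where it is in the equal-length list and open where it ranked lower. Green bands mark the 16 shared regions, and the columns of circles at the starts of Agt and Enpep run through all 17 mice, while Agtr1b has 3 summits in all.

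Renin is the enzyme that starts the cascade. Ren1 (ENSMUSG00000070645.5, mm10 chr1:133350510-133360325, plus strand) had no summit within 2 kb of its start in any complete list. All 16 Ren1 summits of the equal-length lists fell into a region upstream and a region in an intron, whose sequences are shown for that reason. Lower-case runs are 300 bases of the mm10 assembly on the strand of the gene, and capitals mark matches to the letters of 6 short motifs on either strand, namely the nuclear receptor hexamer AGGTCA, the core GTTAAT of the tubule transcription factor HNF1, the AP-1 motif TGANTCA, the CCAAT box, the GC box GGGCGG and the E-box CACGTG.
Ren1 −2568, chr1:133347793-133348092: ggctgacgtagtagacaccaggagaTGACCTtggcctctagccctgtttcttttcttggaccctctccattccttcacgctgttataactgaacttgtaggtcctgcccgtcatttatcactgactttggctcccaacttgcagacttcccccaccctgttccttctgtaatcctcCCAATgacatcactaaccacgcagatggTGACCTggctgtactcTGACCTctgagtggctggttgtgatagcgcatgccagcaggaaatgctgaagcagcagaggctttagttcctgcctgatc
Ren1 +3186, chr1:133353547-133353846: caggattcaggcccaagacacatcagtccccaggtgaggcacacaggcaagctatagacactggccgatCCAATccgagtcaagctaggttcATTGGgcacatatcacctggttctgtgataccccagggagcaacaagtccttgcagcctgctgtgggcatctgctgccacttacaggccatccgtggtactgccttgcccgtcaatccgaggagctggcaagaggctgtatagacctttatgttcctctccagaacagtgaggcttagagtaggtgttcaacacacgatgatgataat

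Ren1 −2568 (chr1:133347649-133348288) lies where the classical enhancer of the mouse renin gene is placed in the literature. It was found in 1 mouse of each group, at percentiles of 5.52 in Ctrl 1, 13.2 in Case 4 and 15.2 in Dapa 11, and in the complete lists in 2 Ctrl, 3 Case and 1 Dapa mice. Where it was found in the equal-length lists, it ranked low. Its window holds 3 copies of the nuclear receptor hexamer in the orientation TGACCT and a CCAAT box, and the closest pair is separated by 10 bases. At least 1 copy of that hexamer was present in 21.4% of the 52405 windows of the same length over all shared regions, and in 3 of the 16 windows of these genes. The other motifs were present in 33.1% of all windows and 7 of the 16 (CCAAT box), 24.5% and 4 (GC box), 12.0% and 1 (HNF1), 9.21% and 1 (AP-1) and 7.04% and 0 (E-box). These shares are not fully alike, since the genome windows are all centred on the median summit. The windows of Ace −36, Agtr1a +99, Enpep −44 and Mme +54486 instead end 20 bases past an annotated start. Of these, Ace −36, Agtr1a +99 and Mme +54486 are among the GC box windows.

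Ren1 +3186 (chr1:133353404-133354007) lies in an intron, 1787 bp downstream of the start of the transcript ENSMUST00000112287.1. It was found in 3 Ctrl mice, 4 Case mice and all 6 Dapa mice, and these counts were the same in the complete lists. Its percentiles were 28.9, 23.0 and 28.8 in Ctrl 1, 3 and 4, and ran from 27.4 over a median of 60.8 to 84.7 in the 4 Case mice and from 22.9 over 60.2 to 69.7 in the 6 Dapa mice. The 3 Ctrl values lay at the low end of both other ranges, and the groups overlapped. In the complete lists the percentiles were 50.9, 51.7 and 50.6 in these Ctrl mice, 50.4 to 88.1 in Case and 51.9 to 80.5 in Dapa. Among the 14851 highest summits no Ctrl mouse had the region, while Case 2, Case 6 and 66.7% of Dapa mice did. Presence did not differ between Case and Ctrl (Fisher's exact test, 2-sided, p = 1.00, adjusted p = 1.00), and the number of mice that had the region was too high for a test of Dapa against either group to reach 0.05. The mean number of Ren1 summits was 0.800 ± 0.837 (SD) in Ctrl, 0.833 ± 0.408 in Case and 1.17 ± 0.408 in Dapa, and no pair of groups differed beyond the spread (exact permutation test, 2-sided, p from 0.545 to 1.00). Some mouse strains carry Ren2, a near-identical copy of renin next to Ren1. Ren2 is not in the C57BL/6J reference, so reads from such a copy would be placed on Ren1. Whether the BKS strain of the Case and Dapa mice carries it is not given in the sources used here, and its part in the Ren1 values of these groups, the ranks of Ren1 +3186 included, was not tested.

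Angiotensinogen, the substrate of renin, is made mainly by the liver and also by the proximal tubule. All of 6 hepatocyte markers, among them Alb and Apoa1, were without a summit in every mouse. Agt (ENSMUSG00000031980.9, chr8:124556534-124569706, minus strand) had the region Agt −136 (chr8:124569308-124570150) in every mouse of the 3 groups. The summits of the 17 mice lay within 343 bp of each other, and the region holds the start of the gene. The window is shown as one of the regions found in every kidney.
Agt −136, chr8:124569693-124569992, minus strand: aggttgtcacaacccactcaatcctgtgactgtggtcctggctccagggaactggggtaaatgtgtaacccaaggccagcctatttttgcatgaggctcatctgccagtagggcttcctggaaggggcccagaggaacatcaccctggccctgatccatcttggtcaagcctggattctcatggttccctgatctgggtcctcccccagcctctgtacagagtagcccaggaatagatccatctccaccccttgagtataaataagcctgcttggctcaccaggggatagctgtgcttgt

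None of the 6 motifs matched in the Agt −136 window. Its percentiles were 78.5, 39.3, 78.1, 91.6 and 70.6 in Ctrl 1 to 5, with a median of 78.1. In Case they ran from 35.2 over a median of 75.5 to 89.3, and in Dapa from 41.9 over 72.1 to 82.4. The 3 groups covered nearly the same range, and 1 mouse of each group (Ctrl 2, Case 6 and Dapa 11) stood low. On the scale of normal scores of the percentile, the difference was 0.02 ± 0.29 (SE) for Case minus Ctrl (limma, adjusted p = 0.987), −0.14 ± 0.28 for Dapa minus Case (adjusted p = 0.968) and −0.12 ± 0.29 for Dapa minus Ctrl (adjusted p = 0.899).

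Agt had 2 further shared regions upstream. Agt −2186 (chr8:124571573-124572181) was found in 3 Ctrl, 0 Case and 3 Dapa mice, at percentiles of 22.4, 22.4 and 5.27 in Ctrl 2, 3 and 4 and of 33.8, 92.0 and 19.6 in Dapa 9, 11 and 12. Agt −3924 (chr8:124573374-124573906), which lies 2481 bp from the start of Capn9, had the other order, with 1 Ctrl mouse at 47.8, 3 Case mice between 35.1 and 58.0 and no Dapa mouse. Neither pattern passed a test: the difference in presence of Agt −3924 between Case and Ctrl had p = 0.545 (Fisher's exact test, 2-sided, adjusted p = 0.795), and that of Agt −2186 between Dapa and Ctrl p = 1.00 (adjusted p = 1.00). In the remaining comparisons either region was found in too few mice for a p under 0.05. Agt summits numbered 2.00 ± 0 in Ctrl (every mouse had 2), 1.67 ± 0.816 in Case and 1.67 ± 0.516 in Dapa (SD).

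**Figure D2:**
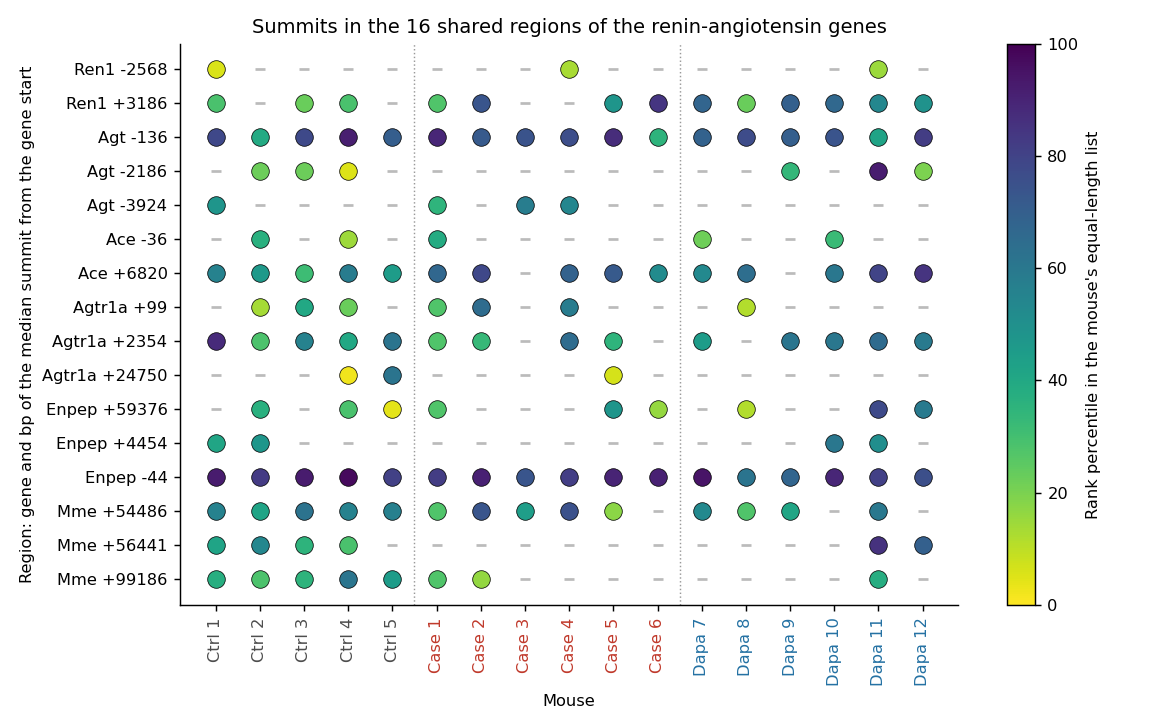
Rows are the 16 shared regions and columns the 17 mice, with the colour of a circle giving the rank percentile of the highest summit in that mouse's equal-length list and a dash marking a mouse without a summit there. The rows Agt −136 and Enpep −44 are filled in all mice, and the rows Mme +56441 and Mme +99186 are filled in 4 and 5 Ctrl mice and in 2 or fewer mice of each db/db group.

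ACE makes angiotensin II and also inactivates bradykinin. Ace (ENSMUSG00000020681.14, chr11:105967945-105989964, plus strand) has an upstream start for the long somatic form and an internal start for the short form of the testis. The region at the upstream start, Ace −36 (chr11:105967596-105968269), was found in 2 Ctrl, 1 Case and 2 Dapa mice, with percentiles from 14.7 to 39.0, and in the complete lists in 4, 2 and 3. The region Ace +6820 (chr11:105974449-105975110), which covers a coding exon and lies 443 bp upstream of the start of the shorter transcript ENSMUST00000001964.7, was found in 5 mice of each group. Among the 14851 highest summits it was found in 40.0% of Ctrl mice and in 83.3% of the mice of either db/db group. In the equal-length lists most mice had a summit inside the gene, and fewer had one at its first start. The internal window is shown for that contrast.
Ace +6820, chr11:105974616-105974915: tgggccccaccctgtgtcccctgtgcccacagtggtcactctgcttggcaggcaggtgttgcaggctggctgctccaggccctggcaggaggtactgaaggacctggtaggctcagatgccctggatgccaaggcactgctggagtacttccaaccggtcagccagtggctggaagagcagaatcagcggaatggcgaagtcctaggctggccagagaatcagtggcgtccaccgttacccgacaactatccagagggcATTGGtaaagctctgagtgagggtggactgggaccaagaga

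The percentiles of Ace +6820 were 55.7, 46.2, 31.3, 58.3 and 45.1 in Ctrl 1 to 5. They ran from 52.2 over a median of 68.8 to 78.4 in the 5 Case mice that had the region and from 53.1 over 64.4 to 84.9 in the 5 Dapa mice, while Case 3 and Dapa 9 had no summit there in the equal-length lists. In the complete lists 5 Ctrl, 5 Case and 6 Dapa mice had the region, with percentiles of 56.4 to 71.8 in Ctrl, 62.9 to 83.9 in Case and 64.7 to 88.3 in Dapa apart from Dapa 9 at 8.64, and the groups overlapped. The upper end of Ctrl overlapped the lower end of both db/db groups. A rank test was made only for regions in all 17 mice, so these levels were not tested. Ace summits numbered 1.40 ± 0.548 in Ctrl, 1.33 ± 0.516 in Case and 1.33 ± 0.816 in Dapa (SD), with p = 1.00 for each pair (exact permutation test).

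The 2 AT1 receptor genes of the mouse stood far apart. Agtr1a (ENSMUSG00000049115.15, chr13:30336441-30382867, plus strand), the main AT1 receptor of the mouse kidney, had summits in 15 mice of the equal-length lists (16 of the complete lists). Agtr1b (ENSMUSG00000054988.9, chr3:20314473-20367177, minus strand), which is used mostly in endocrine glands, had 2 summits in all, 158 bp downstream of its start in Ctrl 5 (percentile 16.8) and 850 bp downstream in Dapa 12 (percentile 13.8). Case 1 added 1 low-ranked summit in the complete lists, at −7587 bp. Agtr1b had no shared region, and fewer summits per 100 kb were found for 17.3% of all genes.

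The most frequent Agtr1a region was Agtr1a +2354 (chr13:30338476-30339152) in an intron, found in 5 Ctrl, 4 Case and 5 Dapa mice. Its percentiles were 88.0, 28.3, 55.7, 40.0 and 61.6 in Ctrl 1 to 5, from 27.4 over a median of 34.1 to 65.2 in Case and from 45.1 over 60.3 to 65.4 in Dapa, and the groups overlapped. The region at the start, Agtr1a +99 (chr13:30336088-30337373), was found in 3 Ctrl, 3 Case and 1 Dapa mice, and in 3, 5 and 3 of the complete lists. Its presence did not differ between Dapa and Ctrl (Fisher's exact test, 2-sided, p = 0.242, adjusted p = 0.594). Agtr1a +24750 (chr13:30360927-30361452), also in an intron, was found in 2 Ctrl, 1 Case and 0 Dapa mice.

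The number of Agtr1a summits was 1, 2, 2, 3 and 3 in Ctrl 1 to 5, 0 to 3 in Case (mean 1.50 ± 1.22, SD, n = 6) and 1 to 2 in Dapa (mean 1.17 ± 0.408). Dapa mice lay at the low end of the Ctrl range, and every group overlapped the others. The difference was −1.03 for Dapa minus Ctrl (exact permutation test, 2-sided, p = 0.0823, adjusted p = 1.00), −0.700 for Case minus Ctrl (p = 0.433, adjusted p = 1.00) and −0.333 for Dapa minus Case (p = 0.760, adjusted p = 1.00). With each mouse left out in turn, the exact permutation p of the first ran from 0.0286 to 0.181, and it was under 0.05 without Ctrl 1 or Dapa 9.

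Enpep encodes aminopeptidase A, which turns angiotensin II into angiotensin III and is abundant in the proximal tubule brush border and in podocytes. Enpep (ENSMUSG00000028024.14, chr3:129269175-129332720, minus strand) had the highest-ranked region of the set at its start, Enpep −44 (chr3:129331796-129333096), in all 17 mice, with a median percentile of 82.5. Its upstream sequence is shown to 20 bases past the start.
Enpep −44, chr3:129332701-129333000, minus strand: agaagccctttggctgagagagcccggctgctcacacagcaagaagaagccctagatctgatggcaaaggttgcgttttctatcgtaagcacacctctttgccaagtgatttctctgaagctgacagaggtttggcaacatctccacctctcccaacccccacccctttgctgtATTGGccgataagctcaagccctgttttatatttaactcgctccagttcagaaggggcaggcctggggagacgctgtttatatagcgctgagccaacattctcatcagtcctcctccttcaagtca

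Enpep −44 stood at percentiles of 92.3, 82.5, 92.3, 97.5 and 80.5 in Ctrl 1 to 5. In Case they ran from 73.5 over a median of 86.1 to 90.8, and in Dapa from 61.6 over 78.4 to 94.7. Medians stepped down from Ctrl to Dapa, and the ranges overlapped throughout. On normal scores the difference was −0.26 ± 0.25 (SE) for Case minus Ctrl (limma, adjusted p = 0.687), −0.20 ± 0.23 for Dapa minus Case (adjusted p = 0.936) and −0.46 ± 0.25 for Dapa minus Ctrl (adjusted p = 0.386). With each mouse left out in turn, the difference from Ctrl ran from −0.374 to −0.0972 for Case and from −0.606 to −0.295 for Dapa, and the latter passed 0.05 before adjustment without Ctrl 2, Ctrl 5 or Dapa 7. The share of 5 podocyte markers with a summit within 1 kb of a start ranged from 0 to 60.0% in Ctrl, 0 to 60.0% in Case and 0 to 40.0% in Dapa.

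**Figure D3:**
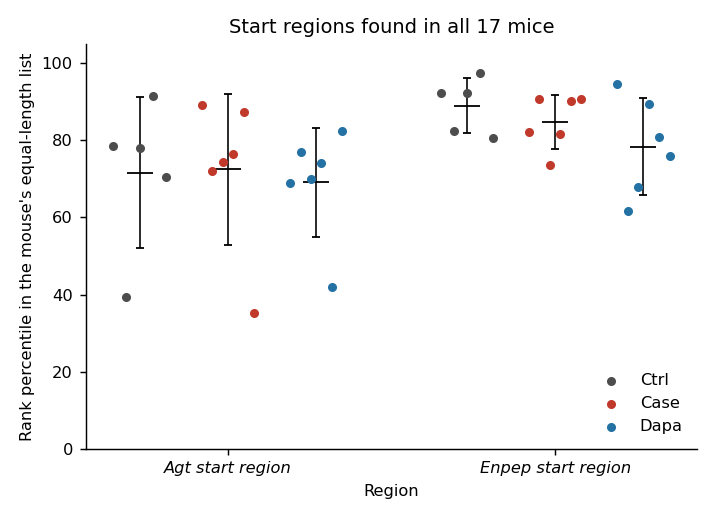
Points are mice, the y axis is the rank percentile in the mouse's equal-length list, and bars are the mean and SD of each group (Ctrl n = 5, Case n = 6, Dapa n = 6) for the start regions of Agt and Enpep, the 2 regions found in all 17 mice. All groups overlap in both regions, and the Enpep region has medians of 92.3, 86.1 and 78.4 in Ctrl, Case and Dapa.

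Within the gene, Enpep +4454 (chr3:129327992-129328534) was found in 2 Ctrl, 0 Case and 2 Dapa mice at percentiles of 41.4 to 60.3, and in the complete lists in 3, 1 and 2. Enpep +59376 (chr3:129272912-129273721), near the far end of the gene, was found in 3 mice of each group, with medians of 28.8, 27.4 and 59.0 in Ctrl, Case and Dapa. Enpep summits numbered 2.00 ± 0.707 in Ctrl, 1.67 ± 0.816 in Case and 2.00 ± 0.894 in Dapa (SD, exact permutation test, p from 0.740 to 1.00).

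Mme encodes neprilysin, a membrane peptidase of the proximal tubule and podocytes that makes angiotensin 1-7 from angiotensin I and degrades natriuretic peptides. Mme (ENSMUSG00000027820.12, chr3:63241537-63386030, plus strand) had no summit from 10 kb upstream of its first annotated start to 50 kb past it in any complete list. Its main region, Mme +54486 (chr3:63295232-63296916), holds other annotated starts and lies 72 bp upstream of that of ENSMUST00000029400.6. It was found in 5 Ctrl, 5 Case and 4 Dapa mice, with percentiles of 55.7, 41.5, 61.9, 55.5 and 57.0 in Ctrl 1 to 5, from 17.3 over a median of 44.2 to 75.1 in Case and from 27.6 over 47.2 to 59.9 in Dapa. In the complete lists 5, 5 and 6 mice had it, at percentiles of 65.8 to 76.1 in Ctrl and 44.5 to 75.1 in Case. Its Dapa percentiles there ran from 5.89 in Dapa 10 and 12.8 in Dapa 12 to 71.8 in Dapa 7. The start of neprilysin was thus present in most mice of every group, with group medians near the middle of the equal-length lists.

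The other 2 regions of Mme, also in introns, each had p under 0.05 before adjustment in a comparison, and their sequences are shown for that reason. No other tested region of the 16 did. Ren1 −2568, Ace +6820, Agtr1a +2354, Agtr1a +24750 and Mme +54486 were tested in no comparison.
Mme +56441, chr3:63297829-63298128: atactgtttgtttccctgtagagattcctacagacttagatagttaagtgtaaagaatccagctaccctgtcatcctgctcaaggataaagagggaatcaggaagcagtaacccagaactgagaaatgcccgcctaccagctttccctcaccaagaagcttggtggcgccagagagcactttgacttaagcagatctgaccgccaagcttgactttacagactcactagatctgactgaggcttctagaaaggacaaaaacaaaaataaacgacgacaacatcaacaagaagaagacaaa
Mme +99186, chr3:63340574-63340873: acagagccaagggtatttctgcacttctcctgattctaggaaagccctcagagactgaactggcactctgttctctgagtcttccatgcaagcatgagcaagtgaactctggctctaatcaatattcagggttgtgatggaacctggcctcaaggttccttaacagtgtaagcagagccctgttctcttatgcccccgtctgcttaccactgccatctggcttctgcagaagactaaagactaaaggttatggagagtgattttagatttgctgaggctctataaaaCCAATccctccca

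Mme +56441 (chr3:63297698-63298267) was found in 4 Ctrl mice, at percentiles of 41.7, 53.6, 35.3 and 28.8 in Ctrl 1 to 4, in no Case mouse and in 2 Dapa mice, at 85.9 in Dapa 11 and 69.9 in Dapa 12. The same counts held in the complete lists. Case against Ctrl had p = 0.0152 (Fisher's exact test, 2-sided, adjusted p = 0.148) and Dapa against Ctrl p = 0.242 (adjusted p = 0.594), and 2 Dapa mice against no Case mouse could not reach 0.05.

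Mme +99186 (chr3:63340354-63341043) was found in all 5 Ctrl mice, at percentiles of 37.4, 28.3, 35.3, 61.2 and 45.1, in 2 Case mice at 27.4 and 16.2, and in 1 Dapa mouse at 37.7. Dapa against Ctrl had p = 0.0152 (Fisher's exact test, 2-sided, adjusted p = 0.192) and Case against Ctrl p = 0.0606 (adjusted p = 0.337). In the complete lists 5 Ctrl, 3 Case and 2 Dapa mice had it, and Dapa against Ctrl then had p = 0.0606 (Fisher's exact test). In the equal-length lists the region ranked in the lower part in every Ctrl mouse but Ctrl 4, while in the complete lists the Ctrl percentiles ran from 56.4 to 73.1. With the lists cut to the 14851 highest summits, Mme +99186 had a summit in Ctrl 4 alone and so was no longer shared by 2 mice, and Mme +56441 was found in 1 Ctrl, 0 Case and 2 Dapa mice. Of the 6 motifs, Mme +56441 matched none and Mme +99186 matched CCAAT once, near its end.

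The number of Mme summits was 4, 3, 3, 3 and 2 in Ctrl 1 to 5. In Case it ran from 0 to 2 (mean 1.17 ± 0.753, SD, n = 6) and in Dapa from 0 to 3 (mean 1.50 ± 1.05, SD, n = 6). Case mice met the Ctrl mice only at 2 summits, the value of Ctrl 5, Case 1 and Case 2. The difference was −1.83 for Case minus Ctrl (exact permutation test, 2-sided, p = 0.0130, adjusted p = 1.00), −1.50 for Dapa minus Ctrl (p = 0.0563, adjusted p = 1.00) and 0.333 for Dapa minus Case (p = 0.760, adjusted p = 1.00). Without the 3 shortest lists (Case 2, Case 3 and Case 4) the first was −2.00 (exact permutation test, p = 0.0714). Dapa minus Ctrl had an exact permutation p from 0.0238 to 0.124 with each mouse left out, under 0.05 without Ctrl 5 or Dapa 11. None of these differences passed adjustment over all genes. Itga8, the mesangial and smooth muscle marker with a summit in 5 Ctrl, 2 Case and 1 Dapa mice, had the same counts as Mme +99186, although its db/db mice (Case 3, Case 4 and Dapa 8) were not those with the Mme region (Case 1, Case 2 and Dapa 11). The ranges of the leukocyte share and of the list lengths, given above, also differed between Ctrl and Case. The part of these in the Mme difference was not tested.

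**Figure D4:**
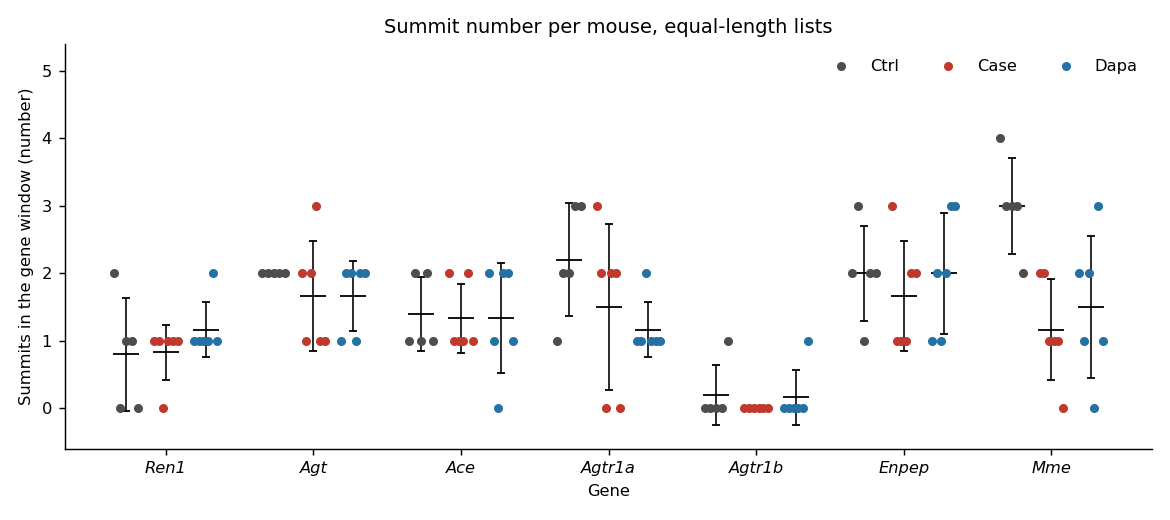
Points are mice, the y axis is the number of summits in the gene window in the equal-length lists, and bars are the mean and SD of each group (Ctrl n = 5, Case n = 6, Dapa n = 6). Mme has 2 to 4 summits in Ctrl mice and 0 to 2 in Case mice, Agtr1b has at most 1 in any mouse, and the other 5 genes overlap between all groups.

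Across the 7 genes together, a Ctrl mouse had 10 to 13 summits (median 12.0), a Case mouse 5 to 13 (median 8.50) and a Dapa mouse 7 to 13 (median 8.00). Of the 16 regions, 6 were found in numbers of Case and Ctrl mice that could reach p under 0.05 in Fisher's exact test, and the same held for 1 region when Dapa was set against Case and for 7 when it was set against Ctrl. No region of these genes passed an adjusted p under 0.05, and over the genome the share that did was 0% of 11417 regions for Case against Ctrl, 0% of 7218 for Dapa against Case and 0% of 10875 for Dapa against Ctrl. Before adjustment 1 of the 6 had p under 0.05 for Case against Ctrl, beside 10.2% of all regions tested, 0 of 1 for Dapa against Case, beside 1.19%, and 1 of 7 for Dapa against Ctrl, beside 7.89%. These backgrounds depended on the mice used: the 1167 regions for Case against Ctrl became 1394 to 2143 with each mouse left out, the 86 for Dapa against Case 141 to 267, and the 858 for Dapa against Ctrl 1067 to 1711. All of these lie above the counts with every mouse. Fisher's exact test takes few p-values at these group sizes, and those under 0.05 change when a mouse is left out. The part of this in the rise was not tested. Over the genome 1067 of the 1167 regions with p under 0.05 for Case against Ctrl were found in fewer Case mice, so a Ctrl-rich region such as Mme +56441 followed the common direction. The median difference in the percentage of mice with a region was −10.00 points over the 6 regions and −26.7 over all regions for Case minus Ctrl. Agtr1a +99 and Enpep +59376, each found in 3 Ctrl and 3 Case mice, stood at −10.00 only because the groups differ in size. For Dapa minus Ctrl it was −10.00 over the 7 regions and −10.00 over all regions, 62.6% of which had a lower percentage in Dapa. All 7 had a lower percentage in Dapa, a group of 6 mice beside 5 in Ctrl. However, Agt −2186, Ace −36, Enpep +59376 and Enpep +4454 were found in equal numbers of Ctrl and Dapa mice. Ren1 +3186, found in 3 Ctrl and 6 Dapa mice, was not among the 7.

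By rank, 2 of the 16 regions could be tested and neither had p under 0.05, before or after adjustment, in any comparison (limma). Over the 7865 regions in all 17 mice an adjusted p under 0.05 was reached by 0.826% for Case against Ctrl, by 0% for Dapa against Case and by 0.0763% for Dapa against Ctrl. These rest on 65, 0 and 6 regions, which became 0 to 127, 0 to 1 and 0 to 22 with each mouse left out, and the first was 0 with the replicate block. The unadjusted shares were 14.5%, 6.26% and 15.4%. By summit number no gene of the set passed adjustment, and neither did any other gene, with shares of 0% of 16282 genes for Case against Ctrl, 0% of 16592 for Dapa against Case and 0% of 16056 for Dapa against Ctrl (exact permutation test, Benjamini-Hochberg adjustment). Mme alone of the 6 genes tested for Case against Ctrl had an unadjusted p under 0.05, beside 3.62% of all genes (590 genes, which became 291 without the 3 shortest lists). The replicate block gave 0 genes, but its 5 pairs allow no sign-flip p below 0.0625, so it cannot show whether the 590 are stable. For the other comparisons 0 of 6 and 0 of 7 had p under 0.05, beside 0.820% and 2.99%. The mean number was lower in Case than in Ctrl for 5 of 6 genes, with a median difference of −0.333, beside 48.3% of all genes tested and a median of 0.

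Of 20 other genes of the pathway, 19 were in the annotation (Ren2 was not), and 12 had summits in enough mice for a test of number. None of the 12 had p under 0.05 in any comparison, before or after adjustment (exact permutation test). Atp6ap2, the prorenin receptor and a subunit partner of the proton pump, had exactly 1 summit in 16 of the 17 mice and 2 in the other one. Agtr2, the AT2 receptor gene, had none in any complete list. A summit was found in all 17 mice for 9 of the 19 genes (47.4%), among them the peptidase genes Anpep, Lnpep, Prcp and Nln and the mineralocorticoid receptor gene Nr3c2, examples named after their values were seen.

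For each gene with summits in at least 9 mice, the gene on another chromosome whose best percentile varied most alike over the 17 mice was looked up. The Pearson correlations were 0.83 for Ren1 with Prkaa2, 0.83 for Agt with Pold3, 0.86 for Ace with Celsr1, 0.84 for Agtr1a with Plcl1, 0.80 for Enpep with Trio and 0.82 for Mme with Stx17. Each is the highest of 12321 to 12915 genes compared, over mice that share their 3 groups and the order of their list lengths, and is given as a description.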

How the data were processed

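Per the labels and the study's methods, the authors ran the ENCODE ATAC-seq pipeline on each library: Bowtie2 alignment to mm10, removal of PCR duplicates and blacklisted sites, a shift of read ends for the width of the enzyme, and peak calling with MACS2, mouse by mouse. Tool versions are not given in the sources used here. The deposited files list 1 summit per line with its score, the −log10 of a p-value or q-value (it is not stated which), and the score rises with depth, so it was used only to rank summits within a library. Scores were heavily tied at the low end (up to 4351 summits at a library's last kept score), and ties were ordered at random with a fixed seed.

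Regions and gene windows used GENCODE vM21 for mm10. Presence was tested by Fisher's exact test, summit number by an exact permutation test of means, and rank by limma 3.58.1 in R 4.3.3 over all 3 groups, each over the whole table with Benjamini-Hochberg adjustment. The smallest possible p was 0.00216 by Fisher's exact test and 0.00433 by permutation, for 6 against 5 mice. Tests were checked on data with known answers. Rank percentiles of a region use its highest summit. P-values rest on the spread between mice of a group. Each member is described with every shared region, and one by one where it lies at a start, ranks highest or had an unadjusted p under 0.05. Some genes of the other lists are not reported here by name. The genes and lists were chosen with earlier results of these data known. Sequences came from the mm10 assembly in RefSeq, and RefSeq promoters matched 6 of the 7 genes but were not printed. Alternatives were other list lengths, extensions, windows, rank scales, a replicate block and each mouse left out, and, chosen after seeing the data, another tie order and the 3 shortest lists left out.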

Additional observations from a re-analysis of the deposited data

Results flagged for a closer look

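Of 45 groups of values of these genes, 10 held a mouse set apart from the rest of its group by Dixon's criterion, which by chance marks about 1 in 20. Several are groups of small whole numbers in which all mice but 1 had the same value, so that any other value stands apart. Case 3 had 0 Ren1 summits where the other Case mice had 1, and Dapa 11 had 2 where the other Dapa mice had 1. Dapa 9 had 2 Agtr1a summits where the other Dapa mice had 1. Agtr1b had 1 summit in Ctrl 5 (best percentile 16.8) and 1 in Dapa 12 (best percentile 13.8), and 0 in the other mice of both groups. The best Agt percentile was 35.2 in Case 6, below the other Case mice, and the Agt −136 region stood at 41.9 in Dapa 11, below the other Dapa mice. Dapa 9 had no Ace summit in its equal-length list (best percentile 0), while all other Dapa mice had one.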

How the results depend on the processing

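By presence and by summit number, 0 regions and 0 genes passed adjustment under every alternative run. The count by rank was less stable: for Case against Ctrl it was 65, and became 133 with regions ranked again among those shared by all mice, 21 with untransformed percentiles, 0 with the replicate block and 14 without the 3 shortest lists, and 0 to 127 with each mouse left out (0 without Ctrl 2 or Ctrl 3, 127 without Ctrl 4). For Dapa against Ctrl it was 6, and became 0 in the complete lists, 34 ranked again and 2 without the 3 shortest lists, and 0 to 22 with each mouse left out. For Dapa against Case it was 0, and 0 to 1 with each mouse left out. The causes were not tested. The mouse numbers do not pair the samples: the correlation of same-numbered Ctrl and Case mice ran from −0.06 to 0.03, and 5 pairs allow no sign-flip p below 0.0625. Under the replicate block the Mme differences had an exact sign-flip p of 0.125 (Mme +56441, presence) and 0.0625 (summit number). Each is the smallest p that its pairs allow, since Ctrl 5 and Case 5 both lacked Mme +56441. The block therefore cannot show whether these differences are weaker.

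Differences in mean summit number that changed sign were all far from the threshold. For Ace they became 0.267 for Case minus Ctrl without the 3 shortest lists, and ran from −0.200 to 0.0833 (Case minus Ctrl) and from −0.200 to 0.200 (Dapa minus Ctrl) with each mouse left out. For Ren1 they became −0.0333 in the complete lists for Case and for Dapa minus Ctrl, and ran from −0.167 to 0.333 for Case minus Ctrl with each mouse left out. Without the 3 shortest lists they were 0.333 (Case minus Ctrl) and −0.333 (Dapa minus Case) for Enpep, and with a 2 kb upstream window 0.167 for Agt (Dapa minus Ctrl). The Agt −136 rank difference for Case minus Ctrl was −0.164 in the complete lists and ran from −0.211 to 0.226 with each mouse left out. Those for Dapa minus Case and Dapa minus Ctrl ran from −0.346 to 0.00804 and from −0.348 to 0.0642.

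Of 462 recomputed levels of the regions and genes, 433 moved by no more than 1 SD between mice. Among the others, with the 14851 highest summits, were the numbers of Ctrl mice with Ace +6820 (5 to 2) and Mme +56441 (4 to 1), and Mme +99186 (5 Ctrl mice) kept a summit in Ctrl 4 alone, too few for a region shared by 2 mice. In the complete lists the median best percentile in Ctrl went from 23.0 to 50.6 for Ren1, 46.2 to 69.4 for Ace and 57.0 to 73.1 for Mme, and the median percentile of Mme +99186 from 36.3 to 56.0. Before adjustment, regions under 0.05 by presence for Case against Ctrl numbered 1167 in the report. They became 501 without the 3 shortest lists and were at most 2143 under any alternative. For Dapa against Case they numbered 47 to 376 (86 in the report) and for Dapa against Ctrl 443 to 1711 (858). Genes by summit number for Case against Ctrl numbered 590, 291 without the 3 shortest lists and at most 811. The replicate block gave 0 for both Case against Ctrl counts, a value fixed in advance, since 5 pairs allow no sign-flip p below 0.0625. Depth is unknown, so a missing summit means only that none was called.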
